A study of Homo sapiens with 6 samples.

Results

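The lysyl oxidases LOX, LOXL1, LOXL3 and LOXL4 were examined by gene name in a deposited table of U87MG glioblastoma cells, where they are 4 of 1630 listed genes. The table compares 3 libraries of cells with a hairpin against CREPT (shCREPT, a CREPT knockdown) with 3 libraries of cells with a control hairpin (shControl). Both groups are derivatives of the same human glioblastoma line, and the labels name no drug, dose or time. They do not say how many hairpin sequences, clones or separate cultures stand behind the 3 libraries of a group, so the spread between libraries may be technical. CREPT is the product of RPRD1B and binds RNA polymerase II. Other members of the lysyl oxidase family were not analysed here.

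Lysyl oxidases are copper-dependent amine oxidases that turn lysines of collagen and elastin into aldehydes. These aldehydes then condense into the crosslinks that make collagen fibrils and elastic fibres stiff and insoluble. LOX and LOXL1 carry a propeptide that is cut off outside the cell, and LOXL1 is best known for elastic fibre upkeep, while LOXL3 and LOXL4 carry scavenger receptor cysteine-rich domains instead. In glioma LOX is known as a gene induced by low oxygen and as a secreted attractant of macrophages.

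The copper-binding stretch of the catalytic domain is 1 of the parts that the 4 proteins share, and its coding bases are shown here. It was found in each gene with a fixed protein pattern that holds the 4 histidines and some other residues. Part of the likeness between the genes was thus set by the search. The sequences are from the GENCODE v29 transcripts (GRCh38), 5′ to 3′ on the coding strand, with the codons of the 4 histidines in capitals.
LOX: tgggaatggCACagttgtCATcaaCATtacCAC
LOXL1: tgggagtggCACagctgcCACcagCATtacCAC
LOXL3: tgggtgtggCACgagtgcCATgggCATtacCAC
LOXL4: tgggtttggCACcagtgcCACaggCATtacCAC
In LOX the stretch lies on the minus strand at chr5:122074160-122075426 and joins exons 3 and 4 of 7, and in LOXL1 it lies on the plus strand at chr15:73946532-73947076 and also joins exons 3 and 4 of 7. In LOXL3 it lies on the minus strand at chr2:74534422-74534553, across exons 10 and 11 of 14, and in LOXL4 on the minus strand at chr10:98252459-98253575, across exons 11 and 12 of 15. The intervals include the intron between these exons. LOX and LOXL1 were identical at 28 of the 33 bases and LOXL3 and LOXL4 at 29 of 33, against 23 to 26 of 33 for the 4 pairs across these 2 subgroups.

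All 4 lysyl oxidase transcripts were lower in the shCREPT libraries than in the shControl libraries, and in none did the groups overlap. The values are the authors' normalized signal per library on a linear scale, with an unknown number of reads behind them. Every row of the table was marked significant by the authors for this same contrast, with an absolute log2 fold change of at least 1.0009, so a difference was a condition of being listed and the tests below describe its size. Groups did not overlap in 93.3% of all 1630 rows, with shCREPT lower in 55.5% and higher in 37.8%.

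LOX, the founding collagen and elastin crosslinking enzyme (chr5:122063195-122078360, GRCh38), had 16.55, 16.48 and 17.23 in the shCREPT libraries, against 85.28, 87.35 and 91.88 in the shControl libraries. The shCREPT libraries were thus close to each other and all far below the lowest control, at 19.0% of the shControl mean. LOXL1, the elastic fibre enzyme (chr15:73925989-73952137), had 56.03, 55.59 and 58.25 in the shCREPT libraries and 197.49, 182.97 and 199.79 in the shControl libraries. Again the shCREPT values lay within a few percent of each other, and their mean was 29.3% of the shControl mean. LOXL3 (chr2:74532414-74555690), a paralog with scavenger receptor domains, had 3.61, 1.87 and 3.26 in the shCREPT libraries, against 10.08, 10.21 and 8.64 in the shControl libraries. Its mean was 30.2% of the shControl mean, and replicate 2 was the lowest of its shCREPT values, so that their coefficient of variation was 31.6% against 2.47% for LOX and 2.52% for LOXL1. LOXL4 (chr10:98247690-98268250), the other paralog of that kind, was low in every library, with 0.23, 0.57 and 0.33 in shCREPT and 0.82, 0.79 and 0.97 in shControl. The gap between the highest shCREPT and the lowest shControl value of LOXL4 was smaller than the widest gap among the shCREPT values themselves, and its mean was 43.8% of the shControl mean. In bulk RNA, fewer cells with a transcript and less of it per cell cannot be told apart.

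**Figure D1:**
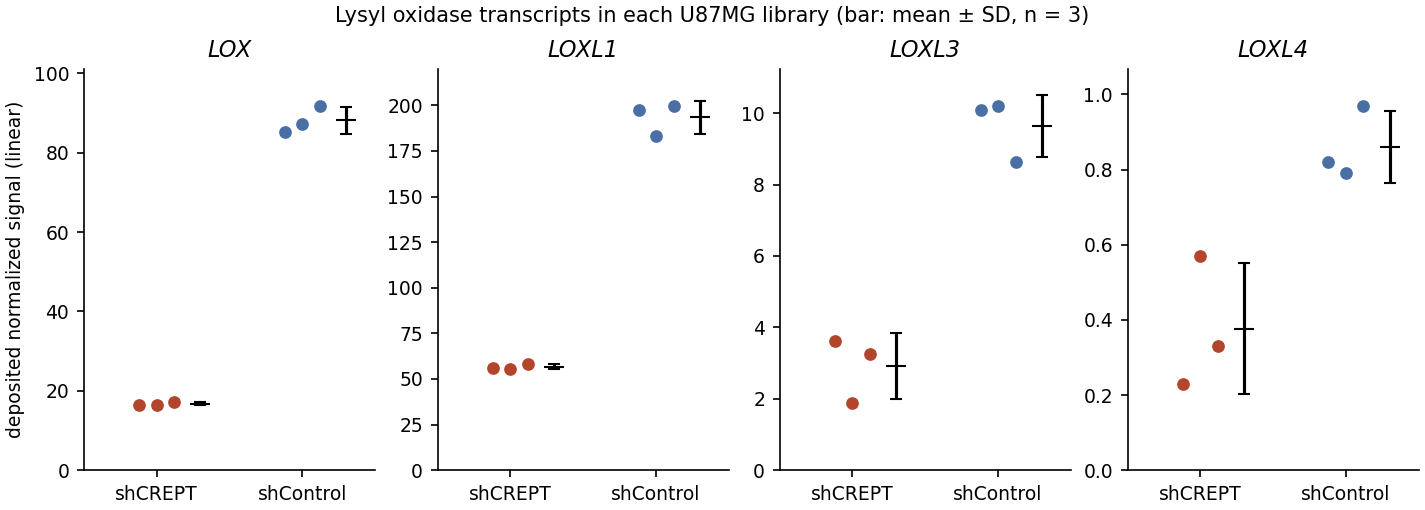
Deposited normalized signal (linear axis from 0, a separate scale for each gene) of the 4 lysyl oxidases in the 3 shCREPT and 3 shControl libraries; points are libraries and bars the mean ± SD (n = 3). LOX lies at 16.48 to 17.23 in shCREPT and at 85.28 to 91.88 in shControl, and only LOXL4 has shCREPT values spread almost up to the controls.

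On the log2(value + 1) scale, limma fitted over the 1184 rows with a value of at least 1 in 3 libraries called all 3 members it could test lower in shCREPT. The log2 change was −2.33 ± 0.08 for LOX (SE; limma adjusted p = 2.43e-06), −1.75 ± 0.08 for LOXL1 (adjusted p = 7.19e-06) and −1.47 ± 0.19 for LOXL3 (adjusted p = 0.000288). Because of the selection, 97.9% of all tested rows passed at an adjusted p of 0.05, 57.3% as lower and 40.6% as higher, so the calls themselves do not set the enzymes apart. The sizes of the falls were the 35th largest for LOX, the 82nd for LOXL1 and the 149th for LOXL3, of 689 tested rows with a lower mean in shCREPT. The median over rows called lower was −1.11 and over all tested rows −0.76. LOXL4 missed the minimum for testing. In the authors' deposited table its log2 fold change is −1.16 with an adjusted p of 0.0124, against −2.36 for LOX, −1.79 for LOXL1 and −1.83 for LOXL3. LOXL1 and LOXL3 therefore stand in opposite order in that table and in the limma fit. By the authors' log2 fold change LOX ranked 241, LOXL3 373, LOXL1 389 and LOXL4 787 of 973 rows marked down. The median of those rows was −1.58, so by that measure the falls stand less far forward. The added 1 shrinks the log2 changes of low rows, which moves well-expressed rows forward in the limma order.

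The sizes of all 4 differences depended on how the libraries were scaled. Of the tested rows 481 were called higher and 678 lower. After median-of-ratios rescaling, which shifts shCREPT against shControl by 0.88 (log2), the calls were 492 higher and 377 lower. The factors came from listed rows alone, and the authors marked 973 of the 1630 listed rows down and 657 up. The shift thus cannot tell a scale difference from that surplus of lower rows. Over all listed rows the deposited values summed to 31894 to 33331 per library. Under that rescaling LOX kept a log2 change of −1.48, LOXL1 of −0.88 and LOXL3 of −0.74, with a median of −0.13 over all tested rows, and each of these 3 stayed called. The untested LOXL4 had −0.12 there, against −0.44 with the values as deposited. Its values lie below 1, where the added 1 shrinks a log2 change, so they are not comparable with the median of the tested rows. With a pseudocount of 0.1 and the values as deposited LOXL4 had −1.07.

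**Figure D2:**
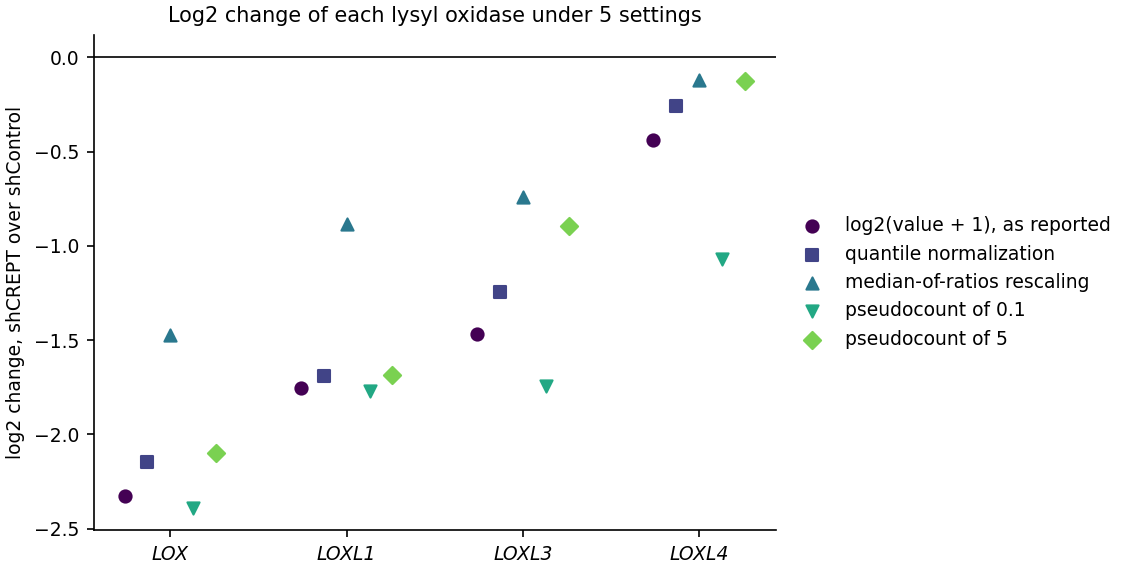
Log2 change of each lysyl oxidase, shCREPT over shControl (y axis, log2 units), with log2(value + 1) as reported, 2 other scalings of the libraries and 2 other pseudocounts. Every point lies below 0, and LOX has the lowest point under each setting, from −2.39 to −1.48.

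The summed signal of the 4 enzymes was 76.42, 74.51 and 79.07 in the shCREPT libraries, against 293.67, 281.32 and 301.28 in the shControl libraries. The means of 76.7 ± 2.29 in shCREPT and 292 ± 10.1 in shControl (SD, n = 3 each) put the family at 26.2% of its control level (exact two-sided permutation p = 0.1, the smallest that 3 against 3 libraries allow). LOXL1 made up 63.5% of the loss in summed signal and LOX 33.2%. Sums and shares over different genes assume values scaled by gene length, which the headers do not state. In the 163 rows with a 0 in some library and a GENCODE length, the lowest value above 0 had a median of 0.22 in the shortest of 5 length classes and 0.03 in the longest, with a Spearman rho of −0.50 across genes.

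The makeup of that sum held less LOX and more LOXL1 in the shCREPT libraries. LOX was 21.7%, 22.1% and 21.8% of the family signal in the shCREPT libraries, against 29.0%, 31.1% and 30.5% in the shControl libraries, a difference of −8.34 percentage points. LOXL1 was 73.3%, 74.6% and 73.7% in the shCREPT libraries, against 67.2%, 65.0% and 66.3% in the shControl libraries, a difference of 7.66 points. Neither pair of groups overlapped, and both shares had an exact two-sided permutation p of 0.1 (adjusted p = 0.2 over the 4 shares). With LOX left out of the sum, the LOXL1 share differed by −0.31 points (exact permutation p = 0.7). LOXL3 made up 3.79 ± 1.15% of the signal in shCREPT and 3.31 ± 0.395% in shControl, and LOXL4 0.494 ± 0.241% in shCREPT and 0.294 ± 0.0242% in shControl (SD, n = 3), with overlapping groups for both. A common scale factor of a library cancels in these shares.

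**Figure D3:**
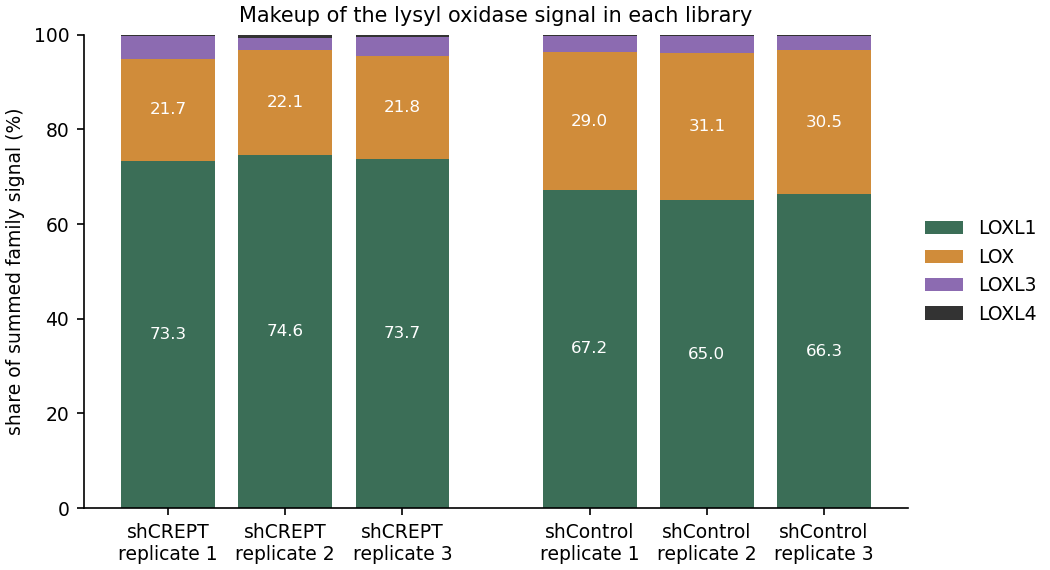
Share of LOXL1, LOX, LOXL3 and LOXL4 in the summed lysyl oxidase signal of each library (y axis in percent from 0 to 100), the 3 shCREPT libraries on the left and the 3 shControl libraries on the right. The LOX segment is 21.7% to 22.1% in shCREPT and 29.0% to 31.1% in shControl.

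Of the 4 members LOX had the largest relative difference between the groups. The linear ratio of LOXL1 to LOX was 3.39, 3.37 and 3.38 in the shCREPT libraries, against 2.32, 2.09 and 2.17 in the shControl libraries (exact two-sided permutation p = 0.1). On the log2(value + 1) scale the change of LOX was lower than that of LOXL1 by a difference of −0.57 ± 0.04, than that of LOXL3 by −0.86 ± 0.23 and than that of LOXL4 by −1.89 ± 0.11 (SE). Each had an exact permutation p of 0.1, or 0.12 adjusted over the 6 pairs of members, and the per-library log ratios did not overlap between groups. With a pseudocount of 0.1 the difference from LOXL3 was −0.65 (exact permutation p = 0.2). LOXL1 and LOXL3 could not be separated, with a difference of −0.28 ± 0.23 and overlapping groups (exact permutation p = 0.3). That value moved to −0.03 with a pseudocount of 0.1 and to −0.79 with a pseudocount of 5, and to between −0.48 and −0.14 with 1 library left out. The comparisons with LOXL4 depend on the pseudocount too, since its values lie below 1. LOXL1 minus LOXL4 was −1.31 ± 0.12, and −0.70 with a pseudocount of 0.1. LOXL3 minus LOXL4 was −1.03 ± 0.33, and −0.67 with that pseudocount (exact permutation p = 0.3).

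The level of each member relative to the other listed genes gives the same order within the family in both groups, LOXL1 above LOX, LOX above LOXL3 and LOXL3 above LOXL4, with no overlap between neighbours. By group mean LOXL1 ranked 109 of 1630 rows in shCREPT and 28 in shControl, and LOX ranked 277 in shCREPT and 70 in shControl. LOXL3 ranked 694 in shCREPT and 433 in shControl, and LOXL4 1289 in shCREPT and 1156 in shControl.

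Reads from overlapping genes could enter these values, since the labels do not say whether strand was kept. No window of 50 bases of the main transcript of any of the 4 genes occurred in another of them. In LOXL3 18.7% of these windows occurred in transcripts of DOK1 or HTRA2, which overlap it on the opposite strand. The shares were 6.47% for LOXL1 (LOXL1-AS1), 2.97% for LOXL4 (AL139241.1) and 1.82% for LOX (SRFBP1). None of these 5 overlapping genes has a row in the table, so their part in the values was not tested.

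Crosslinking begins with the collagen chains that the enzymes act on and with the enzymes that modify lysine and proline before secretion. Of 100 genes listed for substrates, processing, copper supply and regulation, 16 had a row and 13 were tested, 4 called higher and 9 lower in shCREPT, and 84 had no row. With 97.9% of all tested rows called, 57.3% as lower and 40.6% as higher, these counts are near those of the table as a whole. COL5A3 and EMILIN2 reached the minimum for testing only through the shCREPT libraries, where they are high. TNXB and SLC31A2 needed the shCREPT libraries too, since their lowest shControl values (0.95 and 0.89) lay below the minimum of 1. The calls of all 4 higher genes were thus partly fixed by that filter. Genes without a row may be expressed or not, and may differ by less than the authors' threshold. The median log2 change of the 13 was −1.23, against −0.76 over all tested rows. Listed rows differ in either direction, so such medians depend on the mix of higher and lower rows and not on size alone.

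Of 11 fibril-forming collagens, 3 had a row. COL1A2, the second chain of type I collagen and an abundant substrate, had 431.57, 492.37 and 478.27 in shCREPT and 1084.21, 1099.05 and 1095.84 in shControl, with a change of −1.23 ± 0.08 on the log2 scale (SE; limma adjusted p = 1.98e-05). That change was smaller than those of LOX and LOXL1, a contrast that was not tested, and under median-of-ratios rescaling its log2 change was −0.35. COL5A3, a minor type V chain, was the exception, with 2.49, 2.45 and 3.08 in shCREPT against 0.18, 0.15 and 0.29 in shControl, a log2 difference of 1.60 ± 0.10 (SE), given as a description. COL3A1 was at 0.01 or below in the shCREPT libraries and at 0.05 to 0.39 in the shControl libraries, too low to be tested. Among 20 genes of collagen modification P3H2, a prolyl 3-hydroxylase, fell, with 5.37, 6.49 and 5.96 in shCREPT and 23.82, 21.73 and 32.16 in shControl (log2 change −1.94 ± 0.16, SE; limma adjusted p = 3.58e-05; −1.13 under that rescaling). The transglutaminase TGM2, which makes a different crosslink, was at 0.37 to 0.64 in shCREPT and at 0.06 to 0.14 in shControl and was not tested. None of the 10 genes of procollagen processing had a row.

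On the elastic fibre side, 4 of 18 genes had a row. EFEMP2 (fibulin-4), which brings LOX to the elastin precursor, had 4.67, 5.58 and 4.85 in shCREPT and 17.16, 17.55 and 17.20 in shControl, a change of −1.60 ± 0.09 on the log2 scale (SE; limma adjusted p = 1.07e-05). Its relative EFEMP1 (fibulin-3) fell by 2.26 ± 0.08 (SE, log2 scale; adjusted p = 3.10e-06), to 18.1 ± 0.679 in shCREPT, against 90.5 ± 3.94 in shControl (SD, n = 3). Median-of-ratios rescaling took EFEMP2 to −0.82 and EFEMP1 to −1.41, and both stayed called. EMILIN2, a glycoprotein of the emilin family, had 1.27 to 1.55 in shCREPT and 0.29 to 0.59 in shControl, a log2 difference of 0.74 ± 0.11 (SE) that is also a description, and of 1.12 under that rescaling. FBLN5 (fibulin-5), which binds LOXL1, had 0.26, 0.31 and 0.28 in shCREPT and 0.74, 0.24 and 1.36 in shControl. Its groups overlapped and it was not tested.

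Of 12 matrix proteins that meet lysyl oxidase or its substrates, 3 had a row. The collagen-binding proteoglycan BGN had 1.42, 1.56 and 1.28 in shCREPT against 87.97, 103.55 and 115.63 in shControl, and the matricellular protein THBS1 had 25.23, 26.52 and 25.98 in shCREPT against 165.57, 175.71 and 162.61 in shControl. Both fell, by log2 changes of −5.41 ± 0.12 and −2.65 ± 0.08 (SE; limma adjusted p = 1.01e-06 and 1.53e-06). TNXB, a tenascin that ties collagen fibrils, had a log2 difference of 0.89 ± 0.14 (SE), also a description, and of 1.43 under median-of-ratios rescaling. Parts of TNXB have a near-identical pseudogene copy, which makes its counts uncertain.

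Copper reaches secreted lysyl oxidase through transporters of the plasma membrane and the Golgi. Of 9 such genes SLC31A2, a relative of the copper importer SLC31A1, alone had a row. It had 2.60, 2.32 and 2.37 in shCREPT and 1.24, 1.49 and 0.89 in shControl. The log2 difference of SLC31A2 was 0.64 ± 0.12 (SE), also a description, and 1.18 under median-of-ratios rescaling. Among 20 regulators known to act on lysyl oxidase genes, 3 had a row and were called lower, as were 57.3% of all tested rows, and 2 of them lost the call under rescaling. EPAS1, which encodes the hypoxia-inducible factor HIF-2 alpha, had 32.22, 26.24 and 29.34 in shCREPT and 57.23, 59.12 and 62.79 in shControl. The ligand TGFB3 had 6.54, 6.71 and 7.47 in shCREPT and 17.21, 21.68 and 18.71 in shControl. The transcription factor SNAI2 had 9.13, 8.32 and 8.26 in shCREPT and 16.36, 18.04 and 21.37 in shControl. The log2 change was −1.01 ± 0.10 for EPAS1, −1.35 ± 0.11 for TGFB3 and −1.03 ± 0.11 for SNAI2 (SE; limma adjusted p = 8.65e-05, 3.58e-05 and 0.000144). Under median-of-ratios rescaling EPAS1 (log2 change −0.15, limma adjusted p = 0.216) and SNAI2 (−0.21, adjusted p = 0.131) lost the call, and TGFB3 kept it (−0.54, adjusted p = 0.0036). That rescaling took its factors from listed rows alone, so the lost calls do not show that these falls are absent. Under quantile normalization the log2 change was −0.87 for EPAS1, −0.83 for SNAI2 and −1.16 for TGFB3 (limma adjusted p = 0.000173, 0.000337 and 7.72e-05).

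**Figure D4:**
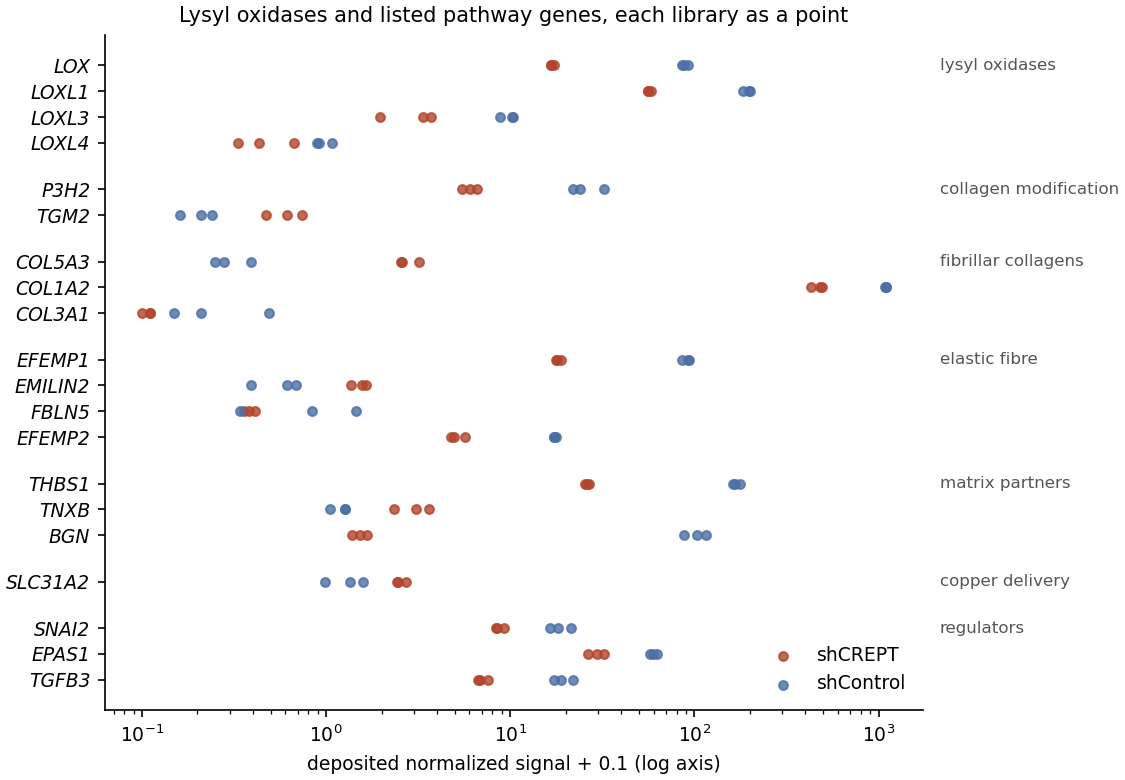
Deposited normalized signal plus 0.1 (log axis) of the 4 lysyl oxidases and the 16 listed pathway genes with a row, 1 point per library, in the 3 shCREPT and the 3 shControl libraries. The shCREPT points lie left of the shControl points in the lysyl oxidases, P3H2, COL1A2, COL3A1, EFEMP1, EFEMP2, THBS1, BGN, SNAI2, EPAS1 and TGFB3. They lie right of them in TGM2, COL5A3, EMILIN2, TNXB and SLC31A2, and the groups overlap in FBLN5.

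All 4 genes matched the RefSeq promoter table (GRCh38.p14). The 250 bases before the start site of LOX and of LOXL1 are shown because these 2 genes carried 95.7% of the family signal in shCREPT and 96.4% in shControl and fell to different degrees. They run 5′ to 3′ on the gene's strand, on the minus strand at chr5:122078260-122078509 for LOX and on the plus strand at chr15:73926212-73926461 for LOXL1. Capitals mark matches to the core of the hypoxia response element, ACGTG on either strand.
LOX: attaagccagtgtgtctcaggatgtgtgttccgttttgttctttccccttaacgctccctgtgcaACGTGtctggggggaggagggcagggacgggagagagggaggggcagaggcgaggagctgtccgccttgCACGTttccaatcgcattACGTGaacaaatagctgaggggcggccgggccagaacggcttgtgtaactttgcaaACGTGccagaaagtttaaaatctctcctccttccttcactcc
LOXL1: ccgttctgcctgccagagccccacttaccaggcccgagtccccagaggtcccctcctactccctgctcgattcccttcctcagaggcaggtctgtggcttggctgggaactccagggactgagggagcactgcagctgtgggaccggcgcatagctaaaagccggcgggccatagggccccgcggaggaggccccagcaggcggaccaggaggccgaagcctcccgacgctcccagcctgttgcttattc

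The LOX window held 4 matches, with first bases at −185, −116, −98 and −42 from the start site, the one at −116 on the opposite strand. The windows of LOXL1, LOXL3 and LOXL4 held none. Of all 35116 promoter windows of the same length, 18.5% held at least 1 match and 0.669% held at least 4, with overlapping matches on the 2 strands counted apart. No member's window held GCGTG (in 32.2% of all windows), TGANTCA, the AP-1 site (6.57%), or TATAAA, the TATA box (10.7%). CACCTG, an E-box bound by Snail factors, was in 17.5% of all windows and in the LOXL4 window, with its first base at −169. No match overlapped another. A match describes letters of the reference and not binding in these cells.

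**Figure D5:**
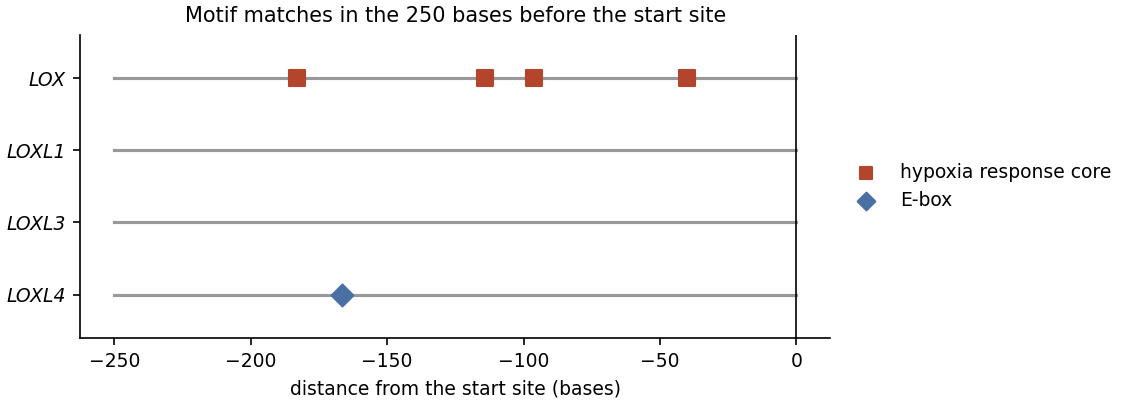
Positions of motif matches in the 250 bases before the start site of each lysyl oxidase gene (x axis, distance from the start site in bases); squares are the hypoxia response core and the diamond is the E-box. LOX has 4 squares and LOXL4 a single diamond.

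The listed genes with the most similar profiles were found by the root mean square distance between centred log2(value + 1) values over the 6 libraries, among the tested rows. For LOX they were CFB (complement factor B), at a distance of 0.035, NPY1R (a neuropeptide Y receptor, 0.055) and EFEMP1 (0.056), against a median of 0.81 over the other 1183 rows. CFB averaged 41.5 ± 1.33 in shCREPT and 215 ± 3.92 in shControl (SD, n = 3). For LOXL1 they were the ubiquitin ligase PDZRN3 (0.072), LZTS1 (0.074) and the insulin-like growth factor binding protein IGFBP5 (0.075), with a median of 0.55 over the other rows. LOXL3 lay further from its closest rows, the chemokine scavenger ACKR3 (0.138), EFHD1 (0.141) and FIBCD1 (0.144). LOXL4 lay closest to KIAA0825 (0.059), a read-through transcript named SUGT1P4-STRA6LP-CCDC180 (0.061) and the junction protein CGNL1 (0.082). These rows averaged 0.43 to 0.61 in shCREPT and 1.09 to 1.22 in shControl. At such levels the added 1 compresses differences, so these distances are not comparable with those of the other members. With 2 groups in 6 libraries, this likeness rests largely on the size of the difference between groups.

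The table has no row for RPRD1B, so the knockdown itself was not checked here. Over the listed genes, Pearson's r between libraries on the log2(value + 1) scale was 0.983 to 0.989 within groups and 0.809 to 0.841 between groups, and no library stood apart. Markers of several cell types were looked up, and those with a row were lower in shCREPT. A difference for this contrast was a condition of having a row, so that the listed markers differ was fixed in advance. The astrocyte markers GFAP, S100B and SLC1A3 (3 of 6 with a row) summed to 72.5 to 88.9 in shCREPT and 498 to 528 in shControl. Of the fibroblast markers COL1A2 alone (1 of 6) had a row, and the endothelial markers CDH5 and KDR (2 of 5) summed to 11.6 to 13.7 in shCREPT and 43.3 to 45.3 in shControl. The smooth muscle marker TAGLN (1 of 5) was at 0.42 to 0.62 in shCREPT and 0.94 to 2.15 in shControl, and the epithelial marker KRT19 (1 of 5) at 0.33 to 1.19 in shCREPT and 3.06 to 3.66 in shControl. None of 5 microglia and macrophage markers had a row. The part of these markers in the lysyl oxidase values was not tested.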

How the data were processed

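RNA of 6 U87MG libraries was sequenced with NEBNext Ultra reagents, per the labels' protocols; HISAT2, HTSeq and GRCh38 are named, without versions or roles, per the submitters' processing notes. Per the file headers, the deposited table holds the authors' normalized signal per library, a fold-change ratio, the log2 of that ratio, and p-values with and without adjustment. The sources used here do not name the normalization, depth is unknown, and no count test was run. All 1630 rows carry the authors' mark of significance.

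Values were compared as log2(value + 1) with limma 3.58.1 (R 4.3.3) over the 1184 rows with at least 1 in 3 libraries and Benjamini-Hochberg adjustment at 0.05. The step was tested on simulated data in which most rows had no change. That test does not cover a table of rows all selected as different, as here. Single values per library were compared by exact permutation (scipy 1.17.1). Libraries were grouped by title; no 2 were identical. Annotation came from GENCODE v29, which holds 1549 of the 1630 identifiers.

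Members, lists, motifs and tests were chosen with earlier results of these data known. Named were the 4 members, list members with a row (at most the 6 highest of a list) and the 3 nearest profiles. Alternatives were other pseudocounts, filters, scalings, limma options, a replicate block and each library left out.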

Additional observations from a re-analysis of the deposited data

How the results depend on the processing

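LOX and LOXL1 kept their direction and call in all 14 alternatives that tested them, with log2 changes of −2.39 to −1.48 and −1.79 to −0.88, and LOXL3 in all 13 (−1.74 to −0.74; limma adjusted p of 0.000103 to 0.0132). LOXL4, too low for the reported test (−0.44), had −1.07 with a pseudocount of 0.1 and −0.12 with 5, which shrinks values below 1 by construction. It had −0.12 under median-of-ratios rescaling, which raises shCREPT against shControl by 0.88 (log2). Under quantile normalization it had −0.26 (the cause was not tested), and with no filter it was called (−0.44, limma adjusted p = 0.00888). Of the tested rows, 377 were called lower under median-of-ratios rescaling, which took its factors from listed rows alone. A minimum of 10 left 487 rows to test, with 214 called higher and 271 lower; of the list members 0 were called higher by limma, because the 4 called otherwise did not reach that minimum. With LOX left out of the sum the LOXL1 share turned to −0.31 points. With 1 library left out, all results kept their direction: the LOX share differed by −8.92 to −7.91 points, that of LOXL1 by 7.08 to 8.19, and the log2 change of LOXL3 was −1.60 to −1.26. Deviations from the group means did not go together in libraries of 1 number (r of −0.109, 0.018 and −0.179), so the numbers were not taken to pair them; with the replicate block limma called 479 rows higher and 677 lower and LOX at an adjusted p of 0.000293. A count test and a division by length were not run, for want of counts and because low values already fell with length. Unknown depth sets no bound for LOXL4.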

Other observations

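The RefSeq table lists 3 start sites for LOX. The 250 bases before each of the other 2 hold 1 match to the hypoxia response core, against 4 at the start site used above, and the second listed start site of LOXL3 holds 0. The windows also differ in base content, with 55.2% G and C in LOX, 64.4% in LOXL3, 66.8% in LOXL1 and 86.4% in LOXL4.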
